A study of Mus musculus with 6 samples.

Results

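The genes described here encode carriers that move amino acids, short peptides and related small molecules across membranes, taken from the Slc1, Slc3, Slc6, Slc7, Slc15, Slc36, Slc38 and Slc43 families by gene symbol, with no measured value entering the choice. Of 22180 genes with 1 annotated symbol on the array, 69 matched, represented by 73 probe sets, and 62 of them passed a filter on dim signal. Each of 6 mouse RNA samples was hybridised to a Mouse Gene 2.0 ST array, which summarises short probes as probe set intensities. All mice had been given Th9 cells, a kind of helper T cell, 10 days earlier, so no comparison has an untreated group. Ly6C-high CD11b+ CD11c- cells, the surface profile of inflammatory monocytes, were obtained by flow sorting from spleen (n = 3) and from tumor (n = 3). Th9 stands in the labels as the strain, while the sources used here do not give mouse strain, age or tumor kind. Separate animals are not stated for the replicates, and the p-values therefore measure spread between samples that may be technical only.

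A cell takes up amino acids through carriers with overlapping preferences. Some are driven by sodium or protons and load the cell. Others exchange 1 amino acid for another, and several of these exchangers (the Slc7 light chains) work only when joined to a heavy chain of the Slc3 family. A further set sits in the lysosome, where it releases the products of protein digestion and reports amino acid supply to the kinase complex mTORC1. In monocytes and macrophages these carriers feed arginine to nitric oxide synthase, cystine to glutathione, and bacterial peptides to sensors in the endosome and cytosol.

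Members that could be read differed in direction rather than moving as a block. In the tumor arrays the arginine carriers Slc7a2 and Slc7a1, the cystine carrier Slc7a11 and the neutral amino acid exchanger Slc7a8 (LAT2) were higher. So were the endosomal and lysosomal peptide carrier Slc15a3, the serotonin carrier Slc6a4 and the nucleobase carrier Slc43a3. Lower were the lysosomal carriers Slc36a1 and Slc38a7, the glutamine carrier Slc38a1, and Slc36a2. The large neutral amino acid carriers Slc43a2 and Slc7a5 were lower too, as was Slc7a6, which exchanges cationic for neutral amino acids. In all, 14 of the 62 passed an adjusted p under 0.05 by limma, a linear model fitted across all 18458 genes tested, against 10.6% of all genes tested. They divided into 7 higher, where 5.73% of all genes were higher, and 7 lower, where 4.85% were lower. Of the 62, 4 were called with a change of at least 2-fold, against 5.33% of all genes tested. The median difference of the 62 was -0.08 on the log2 scale, beside -0.05 for all genes tested, and their median absolute difference was 0.25 beside 0.18. With other scalings of the arrays the split was 8 higher and 13 lower (quantile), 7 and 13 (median centring) or 9 and 12 (cyclic loess). A level is log2(intensity + 1), listed for the arrays numbered 1, 2 and 3 or as mean ± SD (n = 3). A difference is the tumor level less the spleen level, ± SE. In bulk RNA of sorted cells, fewer cells of a kind and less RNA per cell cannot be told apart.

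**Figure D1:**
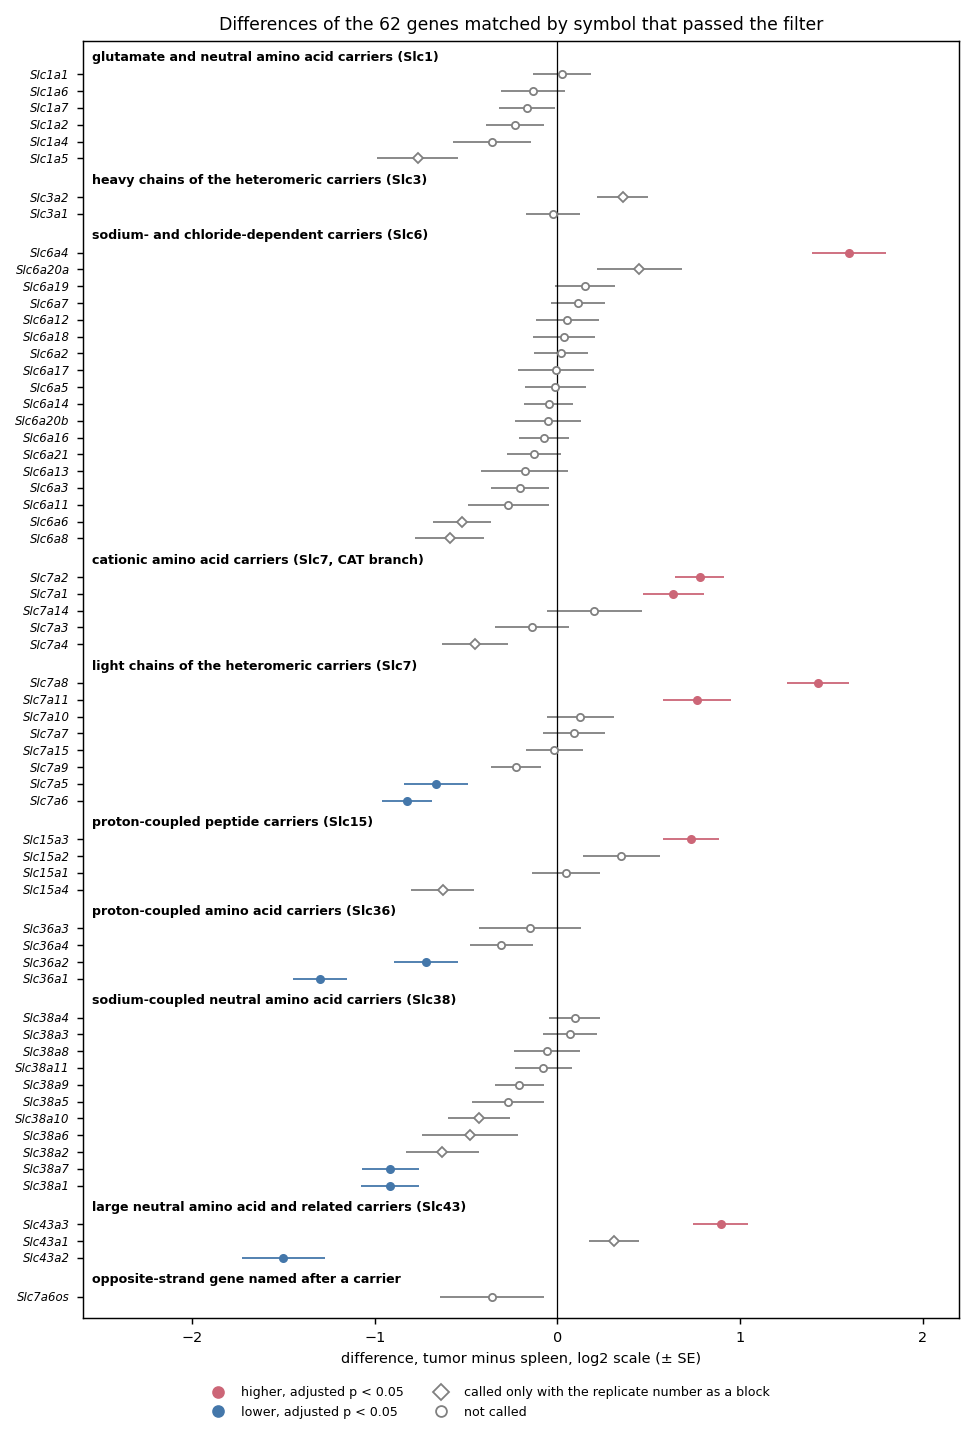
Difference in level (tumor minus spleen, log2 scale, point ± SE) of each of the 62 genes that passed the filter, grouped by carrier family. Filled points are the 7 higher and 7 lower genes called at an adjusted p under 0.05, open diamonds the 11 called only with replicate numbers blocked, open circles the rest, most of which lie close to 0.

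A few facts of the series bear on these values. Array medians of log2 intensity ran from 4.50 to 4.51 for numbers 1 and 2 and were 4.73 (spleen) and 4.76 (tumor) for number 3, so both arrays numbered 3 read high for many genes. With the replicate number as a block, 29.0% of all genes were called (11.7% higher, 17.3% lower), and 25 members (10 higher, 15 lower). Among the arrays numbered 1 and 2 alone 15.9% of all genes were called, and 19 members. Counts at an unadjusted p under 0.05 by limma are given below without a share, since none was taken over all genes.

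The sorted cells themselves differed between the tissues. Of 10 monocyte markers 5 were higher in tumor and 3 lower, with and without the block. Ms4a4c (4.67 ± 0.17) and the Fc receptor Fcgr1 (3.56 ± 0.16) rose most. Of the genes behind the sort, Ly6c2 averaged 6.81 for spleen and 8.29 for tumor, Itgam, which encodes CD11b, 10.04 and 9.19, and Itgax, which encodes CD11c, 11.16 and 10.31 although the sort was for CD11c-negative cells. All 3 were called, Ly6c2 higher and the others lower, but Ly6c2 not without spleen 1 or spleen 2, Itgam not without spleen 2, tumor 1 or tumor 2, and Itgax not without tumor 1 (highest adjusted p 0.0711, 0.0801 and 0.0594). The other called monocyte markers, named after their values were seen, were Cd14 (2.01) and Plac8 (0.68) as higher and Ccr2 (-0.93) and Csf1r (-0.57) as lower.

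Markers of other cells were listed too, and single genes carried several of their summed intensities. T cell markers had 1 of 8 higher and 1 lower (2 lower with the block). Cd3g (-1.36) fell and Cd28 (5.91 to 5.11) passed only with the block. The summed T cell intensity was 2366 to 2696 on the spleen arrays and 3158 to 3660 on the tumor arrays, but without Il7r, the brightest and the only one called higher, it was 306 to 352 and 190 to 246. Il7r itself was not called without spleen 1, spleen 2, tumor 1, tumor 2 or tumor 3 (adjusted p up to 0.193). Conventional dendritic cell markers had 2 of 7 higher, Zbtb46 (0.89) and Dpp4 (0.87), and 1 lower, Itgax (2 lower with the block). Their sum was 3312 to 3790 and 2583 to 3031, and without Itgax 1175 to 1320 and 1353 to 1585. Zbtb46 was not called without spleen 1, spleen 2 or tumor 2, nor Dpp4 without spleen 1, spleen 2, tumor 1 or tumor 3. Plasmacytoid dendritic cell markers had 2 of 6 higher, Tcf4 (1.92) and Bst2 (1.38), and 1 lower. Their sum was 1008 to 1518 and 2712 to 3326, and without Bst2 325 to 469 and 735 to 1173, while Siglech, which defines these cells, stood at 4.52 and 4.62.

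Macrophage markers had 1 of 10 higher, Vcam1 (1.90), and 2 lower, among them C1qc (-0.74), against 2 higher and 4 lower with the block. C1qc was not called without spleen 1, spleen 2 or tumor 2. The macrophage sum was 6500 to 8470 on the spleen arrays and 5384 to 7480 on the tumor arrays. Without Mrc1, the brightest, it was 5010 to 6062 and 4246 to 5163. For comparison, monocyte markers summed to 14448.6 to 14982.3 in spleen and 16507.5 to 18015.1 in tumor. Without Lyz2, their brightest, those sums were 4492 to 5220 and 7677 to 8226. Endothelial markers had 1 of 5 higher (Kdr, 2.88) and 1 lower (Vwf, -1.37). Their sum was 489 to 589 in spleen and 564 to 770 in tumor, and without Vwf 181 to 226 and 435 to 632. Neutrophil markers had 1 of 9 lower, Mmp9 (-1.12), and 2 with the block, S100a8 being the other. They summed to 1522 to 1604 in spleen and 1247 to 1374 in tumor, and without S100a8 to 896 to 1144 and 769 to 1028. Epithelial markers had 1 of 5 lower, Krt19 (-0.92), and 2 with the block, while Epcam stood at 0.45. Krt19 was not called without spleen 1, spleen 3, tumor 1 or tumor 2. For melanocytic, B, NK, erythroid and fibroblast markers 0 of 5, 6, 6, 2 and 5 tested genes were called, with 0, 0, 1, 0 and 2 at an unadjusted p under 0.05 by limma. With the block the NK marker Klrd1 (0.76, adjusted p = 0.000667) and the fibroblast markers Dcn (0.38, adjusted p = 0.0262) and Col1a1 (-0.47, adjusted p = 0.00649) were called, against 0.0589, 0.204 and 0.179 without. The NK sum was 328 to 397 and 479 to 620, and without Klrd1 90.4 to 121 and 94.1 to 134. Klre1 stood at 0.40, Cd79b and Blk of B cells at -0.51 and 0.35, Sox10 and Pmel of melanocytic cells at 0.15 and -0.15, and Klf1 and Epor of erythroid cells at 0.20 and -0.18. The part of other cells in the carrier differences was not tested.

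The promoters of Slc7a11, Slc36a1 and Slc38a7 are shown because the cystine carrier and the lysosomal amino acid carriers called as lower hold short motifs counted below. The peptide carrier Slc15a3, also lysosomal, was called as higher and is not shown. Sequences are those of RefSeq on GRCm38.p6, from 250 bases before to 50 bases after the annotated start, written 5′ to 3′ along the gene. For Slc7a11 (chr3:50443564-50443863, minus strand) the capitals mark the letters TGATGNAA or their reverse complement TTNCATCA, the core of the element that ATF4, the transcription factor of amino acid starvation, binds. For Slc36a1 (chr11:55204090-55204389, plus strand) and Slc38a7 (chr8:95853442-95853741, minus strand) they mark CACGTG, the core read by TFEB, a transcription factor of lysosomal genes, and by other factors of its class.
Slc7a11: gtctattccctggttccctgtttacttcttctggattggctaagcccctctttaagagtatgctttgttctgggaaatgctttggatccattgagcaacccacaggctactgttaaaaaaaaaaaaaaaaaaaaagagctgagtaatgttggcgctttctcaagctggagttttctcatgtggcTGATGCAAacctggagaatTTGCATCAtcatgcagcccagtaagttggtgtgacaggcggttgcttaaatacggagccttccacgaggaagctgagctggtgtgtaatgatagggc
Slc36a1: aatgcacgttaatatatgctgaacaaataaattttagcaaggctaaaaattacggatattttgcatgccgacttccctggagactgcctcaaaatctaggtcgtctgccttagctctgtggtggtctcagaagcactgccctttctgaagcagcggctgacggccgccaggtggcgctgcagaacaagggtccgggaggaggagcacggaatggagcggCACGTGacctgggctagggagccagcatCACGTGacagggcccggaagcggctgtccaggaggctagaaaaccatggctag
Slc38a7: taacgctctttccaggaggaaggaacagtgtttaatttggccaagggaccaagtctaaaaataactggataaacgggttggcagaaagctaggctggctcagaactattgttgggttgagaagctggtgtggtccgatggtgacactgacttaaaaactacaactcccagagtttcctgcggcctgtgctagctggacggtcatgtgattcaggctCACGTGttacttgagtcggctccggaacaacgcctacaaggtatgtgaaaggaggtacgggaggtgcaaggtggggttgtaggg

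Of the 62 genes, 47 have a promoter in that table, 8 of them called. The letters TGATGNAA, on either strand, occurred in 4 of the 47, and 4.51% of all 27025 genes in the table have them in at least 1 promoter. In Slc7a11 they occurred at 66 and 47 bases before the start, once on each strand, and the other 3 genes (Slc1a4, Slc6a21 and Slc7a7) were not called. CACGTG occurred in 9 of 47, beside 8.09% of all genes, with the 2 copies of Slc36a1 beginning 31 and 3 bases before the start and that of Slc38a7 at 34. Both genes fell, and of the other 7 genes with CACGTG none was called and 1 (Slc43a1) was called, as higher, with the block. The interferon-stimulated response element was matched in 0 of 47, beside 3.99% of all genes. For the antioxidant-response letters TGACNNNGC the counts were 8 of 47 beside 3781 of all 27025 genes, for TTCNNNGAA, read by STAT factors, 3 of 47 beside 9.55%, for TGANTCA, read by AP-1, 8 of 47 beside 8.97%, and for GGGNNTTCC, a form of the NF-kB site, 2 of 47 beside 6.58%. TTCNNNGAA occurred in Slc7a1 and Slc7a11, both higher, and in Slc38a9, which was not called. Called genes with TGACNNNGC were Slc7a1 (higher), Slc36a1 and Slc7a6 (lower). Those with TGANTCA were Slc7a1 (higher) and Slc38a7 (lower), and no gene with GGGNNTTCC was called. In the sequences above, TTCNNNGAA of Slc7a11, TGACNNNGC of Slc36a1 and TGANTCA of Slc38a7 are left unmarked. Such a match describes letters, and binding was not measured.

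Arginine and other cationic amino acids enter through the CAT branch of Slc7, of which 5 of 5 genes passed the filter, 2 rose and 0 fell (by limma 1 lower at an unadjusted p under 0.05). Slc7a2, the carrier known for feeding inducible nitric oxide synthase in macrophages (probe set 17500716, Entrez gene 11988), read 10.68, 10.75 and 10.79 in spleen and 11.47, 11.55 and 11.54 in tumor. The groups did not overlap and both were tight, and Slc7a2 was 1.71-fold higher in tumor (0.78 ± 0.13, adjusted p = 0.00731). Slc7a1, the widely expressed arginine carrier, read 6.84, 6.74 and 6.81 in spleen and 7.23, 7.34 and 7.72 in tumor. Its tumor values spread more, with number 3 highest, and its rise of 0.63 ± 0.17 stood close to the threshold (adjusted p = 0.0473). Without any 1 of the 6 arrays Slc7a1 was not called (adjusted p = 0.0768 to 0.179, differences 0.49 to 0.73). Slc7a4, a family member with no settled transport function, was dim, at 4.14 ± 0.10 in spleen and 3.68 ± 0.30 in tumor, and passed only with the block (-0.45 ± 0.12, adjusted p = 0.027, against adjusted p = 0.186 without). Slc7a14 and Slc7a3 stood at 0.20 and -0.14 and were not called.

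Light chains of the heteromeric exchangers moved apart. Of the 10 genes 8 passed the filter, 2 rose and 2 fell. Slc7a8 encodes LAT2, an exchanger of neutral amino acids (probe set 17306477, Entrez gene 50934). On the spleen arrays it read 10.33, 10.47 and 10.78 and on the tumor arrays 11.85, 11.88 and 12.12, so that even the lowest tumor value lay above the highest spleen value. The rise was 2.68-fold (1.42 ± 0.17, adjusted p = 0.00111), and it held without any 1 array (adjusted p up to 0.00881).

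Slc7a11 encodes xCT, which brings in cystine in exchange for glutamate and so supplies cysteine for glutathione. Its brighter probe set (17405082, Entrez gene 26570) read 9.72, 9.70 and 10.13 in spleen and 10.53, 10.45 and 10.86 in tumor. Groups were separate, with number 3 the highest in each, and the difference was 0.76 ± 0.18 (1.70-fold, adjusted p = 0.0337). The call was lost without spleen 1, spleen 2, tumor 1, tumor 2 or tumor 3 (adjusted p = 0.0584 to 0.146, differences 0.64 to 0.84), and with the block it was firmer (adjusted p = 0.00069). The other probe set of Slc7a11 (17397421) behaved otherwise, at 4.28, 4.07 and 6.46 in spleen and 4.28, 3.96 and 7.24 in tumor. Here the groups overlapped, the 2 arrays numbered 3 stood above the other 4, and the difference was 0.22 ± 0.92 (adjusted p = 0.967 over all probe sets). With the mean of both probe sets Slc7a11 stood at 0.49 and was not called (adjusted p = 0.755).

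Slc7a6 and Slc7a5 fell. Slc7a6 encodes y+LAT2, an exchanger of cationic for neutral amino acids, and read 6.97, 7.05 and 7.09 in spleen and 6.23, 6.27 and 6.13 in tumor. The separation was wide against the spread, at -0.82 ± 0.14 (1.77-fold lower, adjusted p = 0.00607), and held without any 1 array (adjusted p up to 0.0419). Slc7a5 encodes LAT1, the main importer of leucine and other large neutral amino acids in dividing cells, and read 7.98, 7.92 and 8.25 in spleen and 7.13, 7.52 and 7.51 in tumor. Its fall of 0.66 (SE 0.17) passed narrowly (adjusted p = 0.0449), was not called without any 1 of the 6 arrays (adjusted p = 0.0511 to 0.186, differences -0.73 to -0.54), and was not called among the arrays numbered 1 and 2 (adjusted p = 0.0912). Slc7a7, the y+LAT1 exchanger next of kin to Slc7a6, stood at 0.09 ± 0.17 (adjusted p = 0.892), with overlapping groups. The 3 other light chains that passed without a call (Slc7a9, Slc7a10 and Slc7a15) lay between -0.23 and 0.13.

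The heavy chain shared by these exchangers in most tissues is Slc3a2, the CD98 heavy chain. It read 10.77, 10.80 and 10.86 in spleen and 11.04, 11.23 and 11.23 in tumor. The groups did not overlap, yet the difference of 0.36 ± 0.14 missed the threshold (1.28-fold, adjusted p = 0.172) and passed only with the block (adjusted p = 0.0244). The kidney heavy chain Slc3a1 was dim and stood at -0.03, with overlapping groups.

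**Figure D2:**
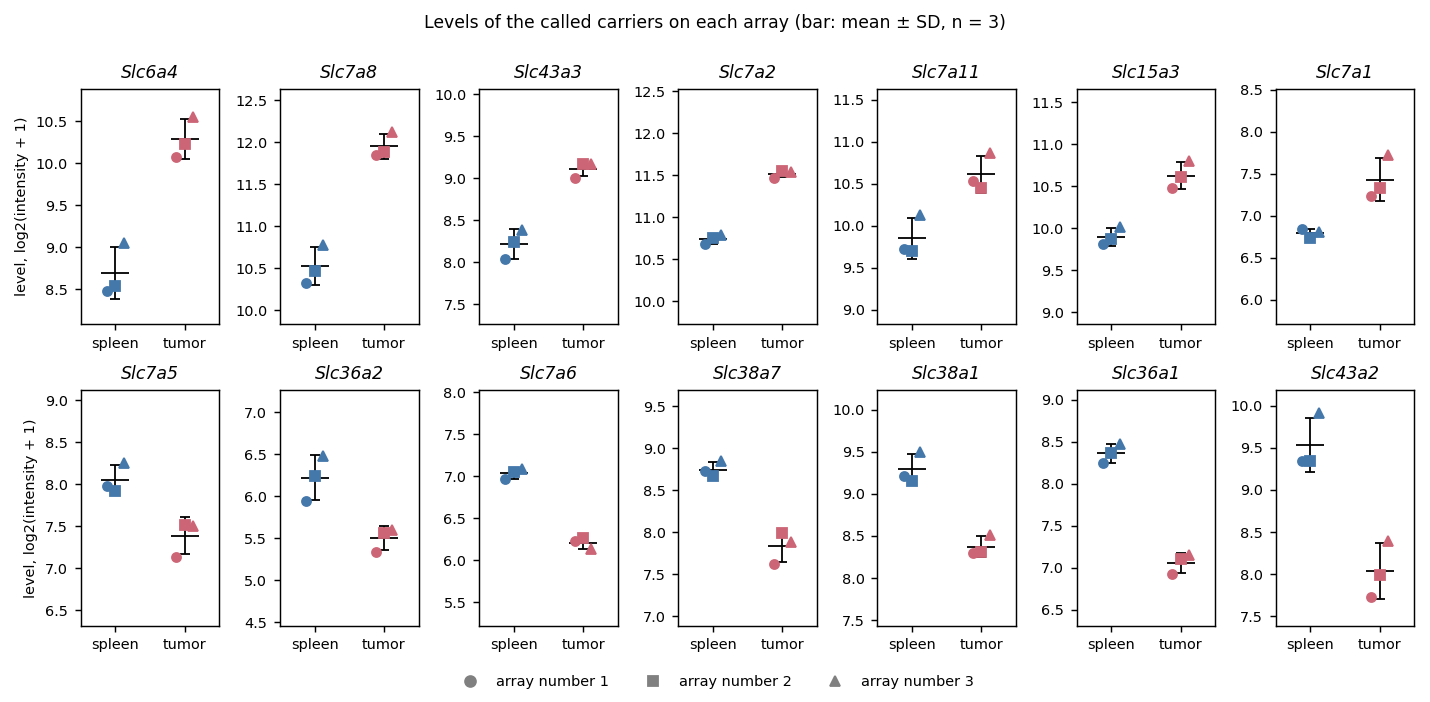
Level of each called carrier, log2(intensity + 1), on the 3 spleen and 3 tumor arrays, ordered from the largest rise (Slc6a4) to the largest fall (Slc43a2). Symbols give the replicate number and bars mean ± SD (n = 3), and each vertical axis spans the same range. In all 14 genes the groups do not overlap, which selection of called genes on the same values favours.

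Peptide carriers of the Slc15 family also differed in direction. Slc15a3 and Slc15a4 are endosomal and lysosomal carriers of histidine and short peptides, including bacterial muropeptides that activate NOD receptors. Slc15a3 (probe set 17357597, Entrez gene 65221) read 9.81, 9.87 and 10.01 in spleen and 10.48, 10.61 and 10.80 in tumor. Its groups were separate and it rose by 0.73 ± 0.15 (1.66-fold, adjusted p = 0.0179), but not past the threshold without spleen 1, spleen 2 or tumor 2 (adjusted p = 0.085, 0.0899 and 0.0582, differences 0.69 to 0.74). Slc15a4, which also anchors an adaptor of endosomal Toll-like receptor signalling, read 9.22, 9.28 and 9.56 in spleen and 8.48, 8.78 and 8.91 in tumor. Every tumor value lay below every spleen value, and the difference of -0.63 ± 0.17 just missed the threshold (adjusted p = 0.0545). Slc15a4 was called with the block (adjusted p = 0.00233) and without tumor 3 (-0.72, adjusted p = 0.0442). The plasma membrane carriers Slc15a1 and Slc15a2 stood at 0.05 and 0.35 and overlapped between groups.

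Proton-coupled carriers of the Slc36 family had 2 of 4 tested members lower and 0 higher (0 higher at an unadjusted p under 0.05 by limma). Slc36a1 encodes PAT1, which exports small neutral amino acids from the lysosome and takes part in mTORC1 activation (probe set 17249811, Entrez gene 215335). It read 8.25, 8.37 and 8.47 in spleen and 6.93, 7.10 and 7.16 in tumor. The gap between the groups was many times their spread, and the fall, 2.46-fold or -1.30 ± 0.15, had the smallest adjusted p of any member (0.000787, up to 0.0081 without any 1 array). Slc36a2, a high-affinity relative that takes up glycine and proline, read 5.95, 6.24 and 6.48 in spleen and 5.34, 5.57 and 5.60 in tumor. Groups were separate and the difference was -0.72 ± 0.18 (adjusted p = 0.0363), not called without spleen 2, spleen 3, tumor 1 or tumor 2 (adjusted p = 0.0731 to 0.162, differences -0.75 to -0.59) nor among the arrays numbered 1 and 2 (adjusted p = 0.0791). In RefSeq's gene order Slc36a3, Slc36a2 and Slc36a1 are direct neighbours, and the dim Slc36a3 stood at -0.15.

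Slc36a4, a carrier of tryptophan and proline, has 2 probe sets that disagreed. The brighter one (17514867), which stood for the gene, read 9.92, 9.77 and 9.41 in spleen and 9.30, 9.39 and 9.49 in tumor. Its groups overlapped because of the arrays numbered 3, and it was not called (-0.31 ± 0.17, adjusted p = 0.386). The other (17514853) read 8.78, 8.88 and 9.46 in spleen and 7.76, 7.73 and 8.17 in tumor. Those groups were clearly separate, at -1.15 ± 0.22 (adjusted p = 0.0148 over all probe sets). The annotation used here does not say which transcripts each reads.

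Sodium-coupled carriers of the Slc38 family take up or release glutamine and other small neutral amino acids. Of 11 tested, 2 were lower and 0 higher, where 4.85% and 5.73% of all genes were. At an unadjusted p under 0.05 by limma 4 were lower and 0 higher. With the block 5 were lower and 0 higher, beside 17.3% and 11.7% of all genes. Slc38a1, a glutamine importer, read 9.22, 9.16 and 9.50 in spleen and 8.30, 8.31 and 8.51 in tumor. It was lower on all 3 tumor arrays, by 0.92 (SE 0.16) on the log2 scale or 1.89-fold (adjusted p = 0.00714, up to 0.046 without any 1 array). Slc38a7, which lets glutamine and asparagine out of the lysosome, read 8.73, 8.67 and 8.84 in spleen and 7.62, 7.99 and 7.89 in tumor. Its spleen values were close together and all above the tumor values, and the difference was -0.91 ± 0.15 (1.88-fold lower, adjusted p = 0.00677, up to 0.0408 without any 1 array).

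Slc38a2, the starvation-inducible glutamine carrier whose gene lies beside Slc38a1, read 9.60, 9.61 and 9.99 in spleen and 8.98, 8.87 and 9.45 in tumor. The groups were separate, with number 3 highest in both, and the difference of -0.63 ± 0.20 missed the threshold (adjusted p = 0.0933) but passed with the block (adjusted p = 0.0021) and without tumor 3 (-0.81, adjusted p = 0.0293). Slc38a6 and Slc38a10 were called only with the block, at -0.48 and -0.43 (adjusted p = 0.00616 and 0.0224, against 0.374 and 0.175). Slc38a9, the lysosomal sensor that reports arginine to mTORC1, read 8.41, 8.38 and 8.30 in spleen and 8.13, 8.08 and 8.24 in tumor. These values did not overlap but lay close together, at -0.21 ± 0.14 (adjusted p = 0.488). Slc38a4, the next gene, was dim and stood at 0.09.

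In the Slc43 family the 3 members had separate groups and did not move alike. Slc43a2 encodes LAT4, which lets branched-chain amino acids, phenylalanine and methionine pass without exchange (probe set 17252995, Entrez gene 215113). It read 9.35, 9.35 and 9.91 in spleen and 7.73, 7.99 and 8.39 in tumor. This was the largest fall of any member, 2.83-fold or -1.50 ± 0.23 (adjusted p = 0.00403, up to 0.0247 without any 1 array), and the difference within the numbers 1, 2 and 3 was -1.62, -1.36 and -1.52. Slc43a3 carries purine nucleobases rather than amino acids, and read 8.03, 8.24 and 8.38 in spleen and 9.01, 9.16 and 9.16 in tumor. It was higher on every tumor array, by 0.89 ± 0.15 (1.86-fold, adjusted p = 0.00714, up to 0.0415 without any 1 array). Slc43a1, the LAT3 relative of Slc43a2, was faint, at 4.23 ± 0.06 and 4.54 ± 0.08, and passed only with the block (0.31 ± 0.09, adjusted p = 0.0378, against 0.235 without).

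Slc6 genes encode sodium- and chloride-dependent carriers of neurotransmitters, amino acids, taurine and creatine, and 18 of 19 passed the filter. Only Slc6a4, the serotonin carrier, was called (probe set 17253215, Entrez gene 15567). It read 8.48, 8.54 and 9.05 in spleen and 10.08, 10.23 and 10.55 in tumor. The lowest tumor array was above the highest spleen array, and the rise was 3.02-fold, or 1.60 ± 0.20, the largest of any member (adjusted p = 0.00168, up to 0.0107 without any 1 array). Platelets and mast cells are known for this carrier, and lists of their markers were written after its value was seen. Of platelet and megakaryocyte markers 0 of 5 were higher (0 at an unadjusted p under 0.05 by limma) and 1 was lower, Ppbp at 9.13 ± 0.31 in spleen and 7.13 ± 0.23 in tumor, with summed intensities of 625 to 861 on the spleen arrays and 283 to 332 on the tumor arrays, and 163 to 170 and 158 to 164 without Ppbp. Pf4 stood at -0.30. Of mast cell and basophil markers 0 of 5 were called (0 at an unadjusted p under 0.05 by limma, 1 lower with the block), with summed intensities of 1088 to 1739 and 1005 to 1461, and 262 to 458 and 212 to 314 without Cpa3. Cpa3, the brightest, stood at 9.91 in spleen and 9.86 in tumor, Kit at 7.89 and 7.33 (called with the block, adjusted p = 0.00432, against 0.397 without) and Ms4a2 at -0.28.

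Slc6a6, the taurine carrier, read 11.55, 11.59 and 11.80 in spleen and 10.99, 11.05 and 11.34 in tumor. The creatine carrier Slc6a8 read 10.07, 10.15 and 10.46 in spleen and 9.39, 9.60 and 9.93 in tumor. In both genes the groups were separate and number 3 was highest on each side. Their differences of -0.52 ± 0.16 and -0.59 ± 0.19 missed the threshold (adjusted p = 0.0821 and 0.0975), and both were called with the block (adjusted p = 0.00427 and 0.0027) and without tumor 3 (-0.63 and -0.74, adjusted p = 0.0439 and 0.0412). Slc6a20a, an imino acid carrier, overlapped between groups and passed only with the block (0.45 ± 0.09, adjusted p = 0.00906, against 0.34 without). Of the 18 tested, 8 were dim in both groups, which here means a mean below 4.42, the 25th percentile of gene levels.

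The Slc1 family of glutamate and neutral amino acid carriers had 0 of 6 tested members called (1 at an unadjusted p under 0.05 by limma, 1 with the block). That member was Slc1a5, or ASCT2, a glutamine exchanger. It read 8.25, 8.33 and 8.72 in spleen and 7.34, 7.60 and 8.06 in tumor. All tumor values lay below the spleen values, yet both groups were spread, and the difference of -0.77 ± 0.22 was not called (adjusted p = 0.0654). With the block (adjusted p = 0.000961), without tumor 3 (-0.96, adjusted p = 0.0214) and among the arrays numbered 1 and 2 (adjusted p = 0.0312) Slc1a5 was called. Its second, dimmer probe set (17486956) stood at 0.25 ± 0.29 with overlapping groups. With the mean of both probe sets Slc1a5 stood at -0.26 and was not called (adjusted p = 0.706). Slc1a4, a relative that carries serine and alanine, stood at -0.36, and the glutamate carriers Slc1a1, Slc1a2, Slc1a6 and Slc1a7 between -0.23 and 0.02.

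**Figure D3:**
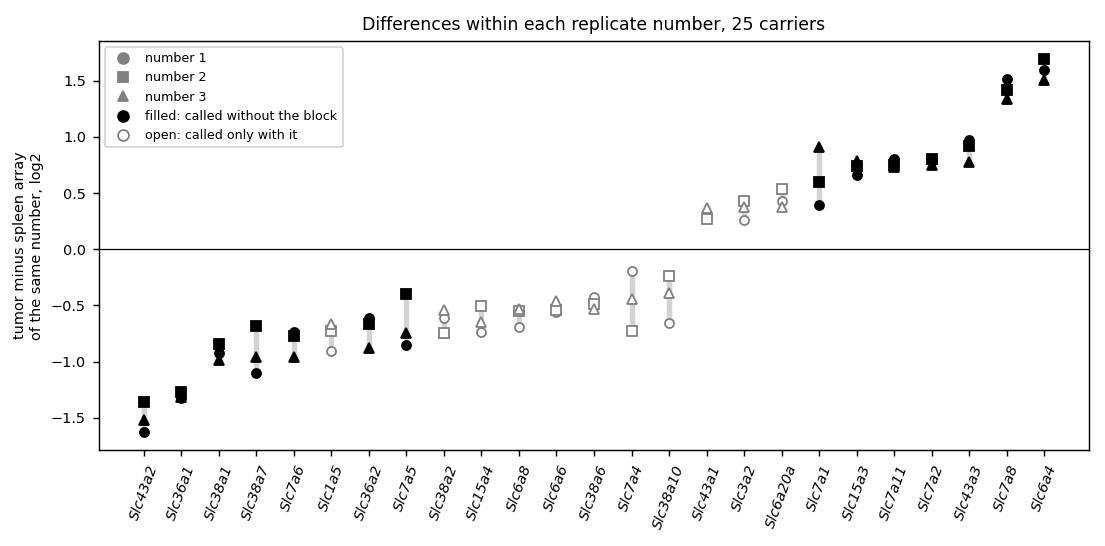
Difference between the tumor and the spleen array of the same replicate number (log2 scale, 1 point per number) for the 25 carriers called with the number as a block. Filled symbols are the 14 also called without the block. In all 25 genes the 3 points lie on 1 side of 0, which selection by the block on the same values favours. Examples are 1.52, 1.41 and 1.34 for Slc7a8 and -0.74, -0.50 and -0.65 for Slc15a4.

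Across the 62 genes the tumor and spleen values did not overlap in 25, beside 25.4% of all genes tested, and 11 of these 25 were not called. Called members were the brighter ones. Each of the 14 had a level of at least 5.74, the median of the tested genes, in 1 group or both, where 29 of the 62 stood, which is 48.3% of those 29 beside 19.3% of all 9586 genes as bright. The 20 members under 4.42 in both groups had 0 calls, beside 0.281% of all genes as dim (1 at an unadjusted p under 0.05 by limma, 1 with the block). A further 36 members, neither named by rule nor called with the block, lay between -0.36 and 0.35, and 35 of them had overlapping groups. The 7 genes that did not pass the filter, which asked for an intensity above the 25th percentile of the array (9.98 to 11.2) on at least 3 arrays, were Slc1a3, Slc6a15, Slc7a12, Slc7a13, Slc15a5, Slc36a1os and Slc6a19os. Just inside was Slc7a9, above it on 3 arrays, and just outside were the 2 opposite-strand genes Slc36a1os and Slc6a19os, on 2. Another such gene, Slc7a6os, matched by symbol and passed, is no carrier but the neighbour of Slc7a6, and stood at -0.36 with overlapping groups. A probe set shared by Slc6a9 and a gene beside it was left out by the rule.

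Genes that use, sense or otherwise carry amino acids were read from lists written by function. Beside their counts stand 5.73% of all genes higher and 4.85% lower, or 11.7% and 17.3% with the block. Sensing by mTORC1 leaned down, with 7 of 34 lower and 0 higher (2 higher at an unadjusted p under 0.05 by limma, 17 lower and 3 higher with the block) and a median difference of -0.34. Sesn1, of the sestrins that inhibit mTORC1 when leucine is short, fell by 1.70 (SE 0.17, adjusted p = 0.000465), from 6.68, 6.88 and 6.84 to 4.98, 4.92 and 5.41. Flcn (-1.12 ± 0.16) and its partner Fnip2 (-1.17 ± 0.18), which act on the Rag GTPases at the lysosome, fell with it, as did the scaffold subunit Lamtor4 (-0.82 ± 0.15). The other 3 were Deptor (-1.29), Tfeb (-0.83) and Tsc1 (-0.84), named after their values were seen. Without tumor 1 the count was 3. These genes both promote and restrain mTORC1, and its activity was not measured.

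The starvation response by GCN2 and ATF4, to which Slc7a11, Slc7a5, Slc3a2 and Slc38a2 are known to answer, had 2 of 23 higher and 0 lower (by limma 7 lower at an unadjusted p under 0.05, 4 higher and 8 lower with the block), with a median of -0.14. With quantile normalization 4 were lower and 2 higher, with median centring 4 and 3, and with cyclic loess 2 and 3. The genes that rose without further scaling were Nupr1 (1.32 ± 0.14) and the phosphatase subunit Ppp1r15a (0.94 ± 0.15). Aminoacyl-tRNA synthetases had 2 of 17 higher and 2 lower (3 and 8 with the block, median -0.30), namely Wars (0.83 ± 0.14) and Rars (0.82 ± 0.18) against Iars (-1.24 ± 0.25) and Gars (-0.67 ± 0.16). The falls numbered 0 without tumor 1 or tumor 2 and 1 without spleen 1, spleen 2 or spleen 3, and the rises numbered 1 without spleen 1, spleen 2, tumor 1 or tumor 3. Wars, which charges tryptophan, is known as an interferon-gamma gene.

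**Figure D4:**
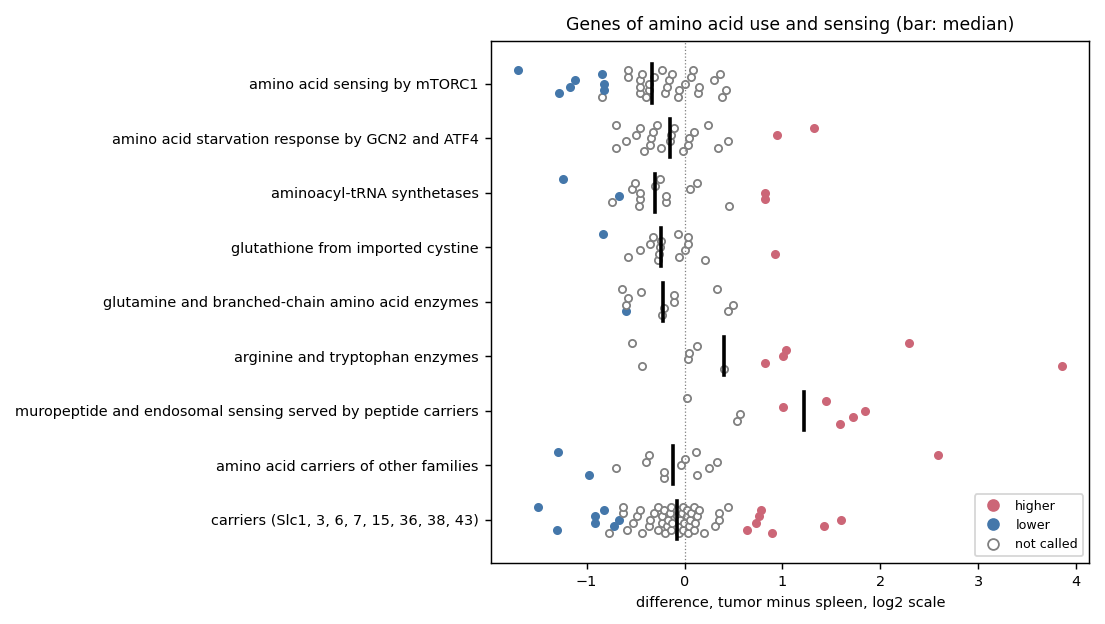
Difference in level (tumor minus spleen, log2 scale) of every tested gene of 8 lists of amino acid use and sensing and of the carriers, with a bar at each median. Filled points were called, and the lists with the highest medians are those of muropeptide and endosomal sensing (1.22) and of arginine and tryptophan enzymes (0.41).

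Enzymes of arginine and tryptophan use had 5 of 11 higher and 0 lower (by limma 1 lower at an unadjusted p under 0.05, 2 lower with the block), with a median of 0.41. Nos2, the inducible nitric oxide synthase that Slc7a2 is known to supply, read 5.50, 5.50 and 5.38 in spleen and 9.37, 9.43 and 9.17 in tumor. That is a rise of 3.86 ± 0.14 (adjusted p = 2.2e-06), far beyond the spread of either group. Ido1 (2.29 ± 0.19), Kynu (8.45 ± 0.23 to 9.45 ± 0.19) and Kmo (0.82 ± 0.14), of tryptophan breakdown, rose too, as did Ido2 (1.03 ± 0.24), named after its value was seen, and the count was 3 without spleen 2. For glutathione, which the cystine of Slc7a11 supplies, 1 of 16 genes was higher and 1 lower (1 and 3 with the block, median -0.24). These were Keap1, the repressor of NRF2 (0.92 ± 0.20), and the peroxidase Gpx1 (-0.83 ± 0.18). The call of Keap1 was lost on leaving out spleen 1, spleen 2, spleen 3, tumor 1 or tumor 2 (highest adjusted p 0.103), and that of Gpx1 on leaving out spleen 1, spleen 2 or tumor 1 (highest 0.0966). Of 12 enzymes of glutamine and branched-chain amino acids 1 was lower and 0 higher (0 higher at an unadjusted p under 0.05 by limma, 5 lower and 2 higher with the block, median -0.22), the glutamine synthetase Glul (-0.60 ± 0.16, adjusted p = 0.046). Glul lost the call without any 1 of spleen 1, spleen 2, spleen 3, tumor 1 and tumor 2, and without tumor 3 the list had 3 lower.

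Of 8 genes of muropeptide and endosomal sensing, receptors and adaptors together, 5 rose and 0 fell (by limma 0 lower at an unadjusted p under 0.05, 0 with the block), with a median of 1.22. The 5 were Myd88 (1.85 ± 0.20), the muropeptide receptors Nod1 (1.72 ± 0.17) and Nod2 (6.98 ± 0.04 to 7.98 ± 0.15), Tlr7 (1.59 ± 0.16) and 5430427O19Rik (1.44 ± 0.24), also named Tasl, the adaptor that Slc15a4 is known to hold, named after its value was seen. Slc15a3, Nod1 and Nod2 were thus higher in tumor while Slc15a4 stood lower and missed the threshold. Amino acid carriers of other families had 1 of 14 higher and 2 lower (2 and 5 with the block, median -0.12). The 14 include Mpc1, of the mitochondrial pyruvate carrier, which is no amino acid carrier. Slc25a22, a mitochondrial glutamate carrier, read 6.80, 6.86 and 7.71 in spleen and 9.41, 9.68 and 10.05 in tumor, a rise of 2.59 ± 0.27 (adjusted p = 0.000554). The lysosomal cystine exporter Ctns (-1.29 ± 0.17) and Mfsd12, of lysosomal cysteine import (-0.97 ± 0.19), fell, the latter not past the threshold if spleen 2 or tumor 1 was left out (highest adjusted p 0.0587).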

How the data were processed

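Per the submitters' processing notes the authors made the values with RMA (no version given), and the deposited table holds 1 linear intensity per probe set and array. Its array medians differ, so whether arrays were brought to 1 distribution is unknown. Here log2(intensity + 1) was used without further scaling. Probe sets with 1 symbol in GEO's platform annotation were kept (23521 of 41345), the one with the highest mean standing for a gene. Genes above the 25th percentile of the array on at least 3 arrays were tested with limma 3.58.1 (lmFit and eBayes, R 4.3.3), Benjamini-Hochberg adjusted over all 18458, calls being adjusted p under 0.05. An exact test of 3 against 3 cannot go below 0.1. The fit was tested on simulated data.

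Members and lists were chosen with earlier results of these data known, and some listed genes also served that work. Named are all called members, every Slc7a11 probe set, a set of fixed names, the 6 largest uncalled differences, up to 4 called genes per list and direction, and the 2 largest differences of marker lists, further genes being marked as chosen later or named as block-called, as the brightest of a list, or as defining or sort markers. Platelet and mast cell lists, sums without the brightest marker and the differences within numbers were added after seeing the data. The labels number replicates 1 to 3 in both groups. Deviations from group means of same-numbered arrays correlated at 0.36, 0.44 and 0.71, above the limit set for treating numbers as pairs. Spleen 1 with tumor 2 correlated at 0.46 and spleen 2 with tumor 1 at 0.35, so only number 3 stood apart as a pair. Because the limit was met, blocked values or counts are given where the block changes a call. Alternatives covered scaling, pseudocount, filter, probe set choice, prior, array weights, threshold, block and left-out arrays.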

Additional observations from a re-analysis of the deposited data

How the results depend on the processing

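With 3 arrays a group, calls near the threshold were unstable. Against 14 carriers called, 29 were called with array weights, 25 with the replicate block, 9 at an adjusted p under 0.01, 9 by limma's treat at 1.2-fold, and 9 to 16 with 1 array left out. The 7 higher became 4 at an adjusted p under 0.01, 4 by treat and 4 to 6 with 1 array left out. The 7 lower became 13 with quantile normalization, 13 with median centring, 12 with cyclic loess, 19 with array weights, 15 with the block, 11 among the arrays numbered 1 and 2, and 5 to 11 with 1 array left out. Of all genes, 1952 were called, against 3506 (quantile), 3289 (median centring), 3184 (loess), 7102 (array weights), 961 (adjusted p under 0.01), 1052 (treat), 5346 (block), 2936 (arrays numbered 1 and 2) and 1011 to 1924 with 1 array left out. The 1057 higher became 1854 (loess), 2867 (array weights), 651 (adjusted p under 0.01), 699 (treat), 2153 (block) and 662 to 1240 with 1 array left out. The 895 lower became 1921 (quantile), 1806 (median centring), 4235 (array weights), 310 (adjusted p under 0.01), 353 (treat), 3193 (block), 1549 (arrays numbered 1 and 2) and 293 to 1036 with 1 array left out. The cause was not tested. None of the 14 called carriers changed direction under any alternative run. The block kept all 14 calls and added 11. Without a pseudocount Slc7a1 was lost, and with a trended and robust prior Slc7a1 and Slc7a5. Signal over background limits the 20 dim members, where 0 were called by limma (1 at an unadjusted p under 0.05, 1 with the block).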

Other observations

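Identical values on at least 2 of the 6 arrays occurred in 4478 of the 18458 genes tested (24.3%) and in 15 of the 62 carriers (24.2%). Among the 14 called carriers 0 had such ties, and among the 20 carriers under the 25th percentile of levels in both groups 9 had. Slc6a12 had 4 equal values, at 6.56. The second probe set of Slc38a10 (17259271) averaged 4.92 ± 0.05 for spleen and 4.67 ± 0.25 for tumor, a difference of -0.25 ± 0.16 with overlapping groups.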
